A study of Homo sapiens with 4 samples.

Results

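The glycolytic enzyme mRNAs described here are the transcripts of 10 genes, HK2, GPI, ALDOA, TPI1, GAPDH, PGK1, PGAM1, ENO1, PKM and LDHA. They were taken from a transcript table of YTHDC1 RNA immunoprecipitation sequencing (RIP-seq) by an exact match of the gene name, with every listed transcript kept. The match found 104 of 75165 listed transcripts and 10 of 20298 listed genes. The cells were MDA-MB-231, an established human triple negative breast cancer line, and all of them carried a lentiviral vector for 3x flag-YTHDC1 and had been selected with puromycin. YTHDC1 is a nuclear protein that binds RNA carrying the modified base N6-methyladenosine. After UV-crosslinking, RNA was recovered from nuclear lysate with an anti-flag antibody in 2 IP libraries, and RNA of the lysate itself was kept for 2 input libraries. The IP took lysate with 500 μg of protein and the input lysate with 50 μg. All cells overexpressed the bait, so neither group stands for cells with their own YTHDC1 level alone.

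Glycolysis splits glucose into pyruvate in the cytosol and yields ATP and NADH, and lactate dehydrogenase then turns pyruvate into lactate while it renews NAD+. Many tumor cells run this pathway at a high rate even with oxygen present, and several of its genes are transcribed under control of HIF1A and MYC. The mRNAs are transcribed and spliced in the nucleus before export, so nuclear lysate holds both unfinished and finished molecules.

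The value reported throughout is the authors' mean normalized count, which is 1 mean per transcript over all 4 libraries, IP and input together. It is an estimated number of reads after scaling between libraries and is not divided by transcript length. It has no value per library, so it carries neither an SD nor an n, library depth cannot be read from it, and no interval could be given. IP and input were not compared here, because the table gives that contrast only as the authors' own fold changes and p-values, which were not used. A count below is therefore an average over IP and input libraries, and says nothing of whether YTHDC1 bound the transcript. No transcript length was at hand, so counts set side by side compare reads and not levels of RNA. This holds between genes and between transcripts of the same gene, so the shares below are shares of reads. The most abundant transcript of a gene means the one with the most reads.

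The table as a whole summed to 33361205 mean normalized counts, with a median of 44.2 and a lowest value of 2.72 per transcript. Of the markers used to check the cell line, VIM (80785 over 9 transcripts), EGFR (22483 over 10) and CD44 (14306 over 30) were listed. The estrogen and progesterone receptor genes ESR1 and PGR had no listed transcript, and the epithelial cadherin CDH1 had 1, at 10.04. ERBB2, the HER2 gene, whose amplification is absent by definition in triple negative tumors, had been listed with these as low or unlisted. Against that expectation, it had a total of 4303 over 15 transcripts.

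The 10 genes together held 389256 mean normalized counts, which was 1.17% of the table and 1.38% of the counts of its 14050 protein-coding genes. Most of these reads belonged to 3 genes. GAPDH, PKM and ENO1 held 33.7%, 25.1% and 19.2% of the members' counts, 78.1% together, and the other 7 genes held 21.9%. The 104 transcripts ran from 4.27 for TPI1-201 to 122927 for GAPDH-211, with a median of 79.99, against a median of 52.2 over the 65841 transcripts of protein-coding genes. The most abundant transcript of each gene, 10 in all, held 87.6% of the members' counts, and the remaining 94 shared the rest. By size, 5 transcripts lay at 10000 or above and made up 81.3% of the members' counts, 22 lay between 1000 and 10000, 20 between 100 and 1000, 50 between 10 and 100, and 7 under 10. Among transcripts of all protein-coding genes, 0.445% lay at 10000 or above, against 4.81% of the members.

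**Figure D1:**
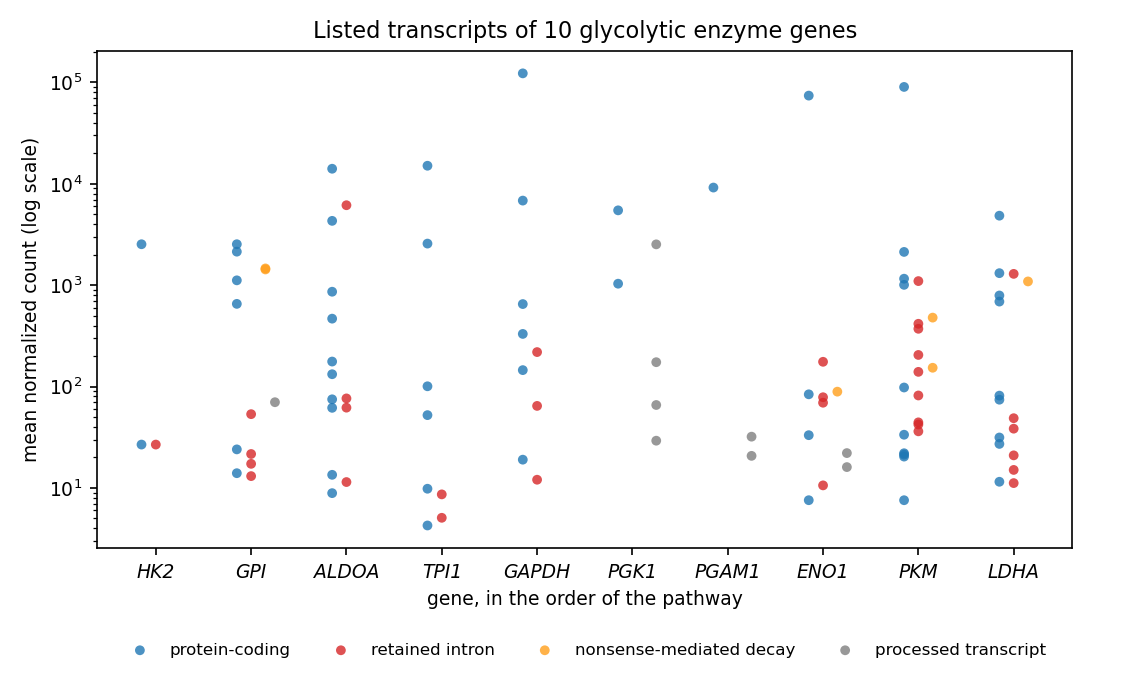
Mean normalized count over the 4 libraries (log scale) of each listed transcript, by gene in the order of the pathway and colored by annotated transcript type. GAPDH-211, PKM-202 and ENO1-201 stand far above the other transcripts of their genes, whereas GPI and LDHA have several transcripts near 1000.

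The first steps of the pathway trap glucose in the cell and rearrange it. HK2, hexokinase 2, phosphorylates glucose and is known for its binding to mitochondria. The gene (ENSG00000159399.10) lies on the plus strand at chr2:74834127-74893359 (RefSeq, GRCh38.p14). It had 3 listed transcripts with a total of 2589, and HK2-201 held 97.9% of it at 2535. HK2-202, also protein-coding, was at 26.81 and the retained-intron transcript HK2-203 at 26.80. HK2 reads were thus assigned almost wholly to 1 protein-coding transcript.

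GPI, glucose-6-phosphate isomerase, converts glucose-6-phosphate to fructose-6-phosphate. The gene (ENSG00000105220.17, chr19:34359718-34402413, plus strand) had 13 listed transcripts with a total of 9559. No transcript dominated. GPI-205 was at 2537 (26.5% of the gene), GPI-208 at 2142 (22.4%) and GPI-201 at 1117 (11.7%), all protein-coding. GPI-221 and GPI-216, annotated as targets of nonsense-mediated decay, the pathway that removes mRNAs with an early stop codon, were at 1464 and 1430. These 2 transcripts held 30.3% of the GPI reads, and it took 5 transcripts to reach 90% of the gene total.

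ALDOA, aldolase A, splits fructose-1,6-bisphosphate into its triose phosphates. The gene (ENSG00000149925.20, chr16:30064279-30070420, plus strand) had 14 listed transcripts with a total of 26499.9. ALDOA-219 was at 14088 (53.2%) and ALDOA-207 at 4313 (16.3%), both protein-coding. Between them stood ALDOA-212, annotated with a retained intron, at 6151 or 23.2% of the gene. The other 3 retained-intron transcripts of ALDOA ranged from 11.4 to 76.5. ALDOA-212 had the most reads of any retained-intron transcript of the 10 genes.

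TPI1, triose phosphate isomerase, interconverts the triose phosphates. The gene (ENSG00000111669.15, chr12:6867420-6870948, plus strand) had 8 listed transcripts with a total of 17834. TPI1-202 was at 15080.0 (84.6%) and TPI1-206 at 2573 (14.4%), both protein-coding. The remaining 6 ranged from 4.27 to 100.7, and protein-coding transcripts made up 99.9% of the gene.

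The steps that follow yield NADH and ATP. GAPDH, glyceraldehyde-3-phosphate dehydrogenase, is widely used as a reference gene, and lies near TPI1 on the same chromosome arm. The gene (ENSG00000111640.15, chr12:6534517-6538371, plus strand) had 9 listed transcripts with a total of 131203. GAPDH-211 alone was at 122927 (93.7%), and GAPDH-201 followed at 6833 (5.21%). Both are annotated as protein-coding. The 3 retained-intron transcripts of GAPDH held 0.225% of its reads.

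PGK1, phosphoglycerate kinase 1, makes the first ATP of the pathway and is encoded on the X chromosome. The gene (ENSG00000102144.15, chrX:78104248-78129295, plus strand) had 6 listed transcripts with a total of 9309. PGK1-206 was at 5476 (58.8%) and PGK1-201 at 1035 (11.1%), both protein-coding. PGK1-205, annotated as a processed transcript with no open reading frame, was at 2529 or 27.2%. All 4 processed transcripts of PGK1 together held 30.1% of its reads, and no retained-intron transcript of the gene was listed.

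PGAM1, phosphoglycerate mutase 1, moves the phosphate group of 3-phosphoglycerate. The gene (ENSG00000171314.9, chr10:97426191-97433444, plus strand) had 3 listed transcripts with a total of 9240.4. PGAM1-201, its only protein-coding transcript listed, was at 9188 or 99.4%. The processed transcripts PGAM1-202 and PGAM1-203 were at 32.1 and 20.7.

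ENO1, alpha-enolase, makes phosphoenolpyruvate. The gene (ENSG00000074800.16, chr1:8861000-8878686, minus strand) had 11 listed transcripts with a total of 74745. ENO1-201 was at 74159, or 99.2%, and each of the other 10 held at most 0.235% of the gene. The next was the retained-intron transcript ENO1-210 at 176. The share of its leading transcript was thus close to that of PGAM1, although ENO1 had 8 more listed transcripts.

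PKM, the pyruvate kinase gene of most tissues, makes pyruvate and ATP, and its M1 and M2 forms differ by a pair of mutually exclusive exons. The gene (ENSG00000067225.18, chr15:72199029-72231591, minus strand) had 21 listed transcripts with a total of 97886, more transcripts than any other of the 10 genes. PKM-202 was at 90318 (92.3%) and PKM-210 at 2130 (2.18%), both protein-coding. The 9 retained-intron transcripts held 2.49% of the reads, PKM-221 at 1098 being the highest of them. The table does not say which transcripts carry the M1 or the M2 exon, so the forms were not counted.

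LDHA, lactate dehydrogenase A, reduces pyruvate to lactate. The gene (ENSG00000134333.14, chr11:18394563-18408425, plus strand) had 16 listed transcripts with a total of 10391. LDHA-206 was at 4851 (46.7%) and LDHA-218 at 1315 (12.7%), both protein-coding. The retained-intron transcript LDHA-207 was at 1294 (12.5%) and the nonsense-mediated decay transcript LDHA-210 at 1090 (10.5%). LDHA reads were spread widely, and 6 transcripts were needed to reach 90% of the total.

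The most abundant transcript was protein-coding in all 10 genes, but its share of the gene total ranged from 26.5% in GPI to 99.4% in PGAM1, with a median of 88.4%. It exceeded 90% in 5 genes (HK2, GAPDH, PGAM1, ENO1 and PKM) and 50% in 8, with GPI and LDHA below. Genes with few transcripts reach high shares more easily, so the members were set beside all protein-coding genes. Of 5927 such genes with at least 5 listed transcripts, 86.6% were led by a protein-coding transcript, so the 10 of 10 is not far from the table as a whole. The median share of the most abundant transcript in these genes was 50.0% (quartiles 38.9% and 65.4%), with 49.9% of them over 50% and 3.73% over 90%. Of the 8 members with at least 5 transcripts, 6 had a share over 50% and 3 over 90%.

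Set beside protein-coding genes with exactly as many listed transcripts, 9 of the 10 members lay above the median. ENO1, with 11 transcripts, had the highest share of the 264 genes with as many, whose median was 45.97%. GAPDH exceeded 99.3% of 442 genes (median 47.5%), and TPI1 exceeded 94.4% of 628 (median 46.01%). PKM had the highest share of only 14 genes with as many transcripts (median 48.04%). HK2 and PGAM1, with 3 transcripts each, exceeded 97.0% and 99.7% of 1902 genes (median 67.3%). ALDOA, PGK1 and LDHA were nearer the middle, above 75.3% of 93, 59.6% of 1188 and 58.3% of 48 genes. GPI lay below the median of 43.6%, with a share higher than that of 12.5% of 152 genes.

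Limiting the comparison to abundant genes lowered most of these ranks. Among genes with as many transcripts and a total of at least 1000, a limit chosen after the values were seen, the median share rose for 3 transcripts from 67.3% to 80.2% and for 6 transcripts from 52.8% to 63.3%. PGK1 (58.8%) then fell below the median, so that 8 members lay above it and 2 below. ENO1 kept the highest share of its set, above 99.6% of the genes in it. GAPDH and PGAM1 exceeded 99.0% and 98.9% of such genes, whereas TPI1 exceeded 91.2% and HK2 89.7%. GPI exceeded 7.69%, LDHA 55.6% and ALDOA 72.0%, and PKM kept its place, since all 14 genes passed the limit. The genes compared include the members, and these ranks describe a single set of means and were not tested.

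**Figure D2:**
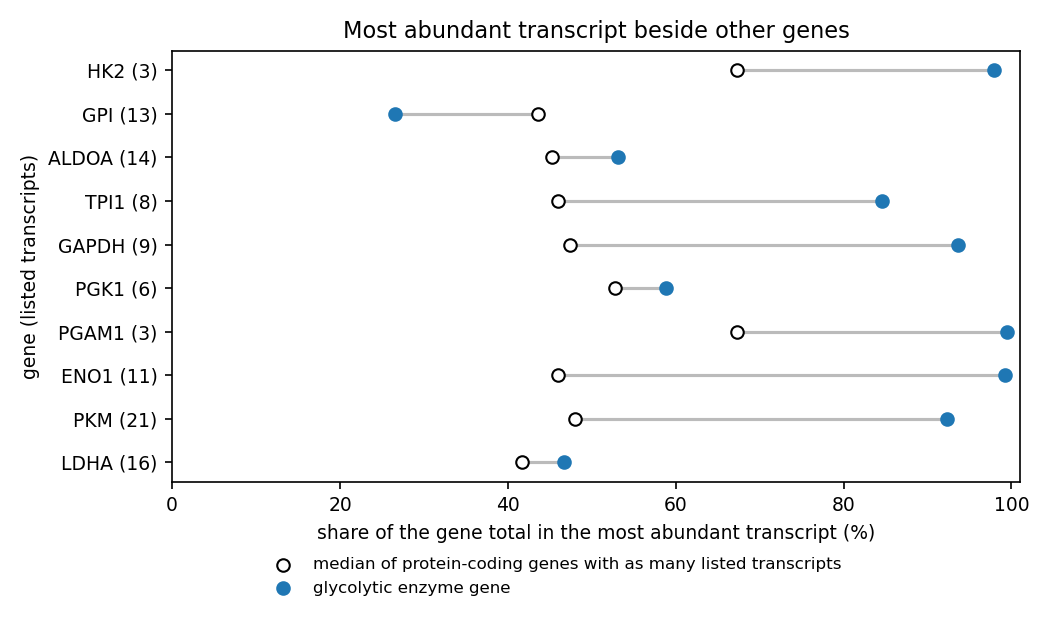
Share of the gene total in the most abundant transcript (filled) for each of the 10 genes, beside the median of protein-coding genes with as many listed transcripts (open), both in percent. ENO1, GAPDH and PKM lie above 90% where such genes have medians of 45.97% to 48.04%, and GPI alone lies below its median.

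By annotated type, the 104 transcripts were 56 protein-coding, 33 with a retained intron, 9 processed transcripts and 6 targets of nonsense-mediated decay. Retained-intron transcripts were 31.7% of the members' transcripts, against 17.2% of the transcripts of all protein-coding genes. Listing required enough reads to pass the authors' filter, and these numbers of transcripts were not matched for the gene total. By reads the order was the other way, with 2.81% of the members' counts in this type against 4.16% in all protein-coding genes. Without ALDOA-212, the other 32 retained-intron transcripts held 1.23% of the members' counts. Protein-coding transcripts held 95.2% of the members' counts, against 87.6% over all protein-coding genes.

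That sum was set by the most abundant genes, and the 10 genes fell into separate ranges when each was taken by itself. Protein-coding transcripts made up over 95% of the reads in 6 genes, from 96.9% in PKM to 99.9% in TPI1. In the other 4 genes they made up under 80%, namely 76.2% in ALDOA, 75.8% in LDHA, 69.9% in PGK1 and 67.9% in GPI. The median over protein-coding genes with at least 5 listed transcripts was 85.5% (quartiles 66.0% and 95.6%), so these 4 lay below the median and above the lower quartile. For genes with 3 listed transcripts the median was 96.0%, and HK2 and PGAM1 exceeded 59.9% and 62.5% of those. TPI1, GAPDH, ENO1 and PKM exceeded 97.5%, 96.8%, 96.6% and 85.7% of genes with as many transcripts. By the same measure ALDOA, LDHA, GPI and PGK1 exceeded 37.6%, 37.5%, 30.9% and 25.5%. The remaining reads were mostly retained-intron in ALDOA (23.8% of the gene), processed transcripts in PGK1 (30.1%) and nonsense-mediated decay in GPI (30.3%), while LDHA had 13.7% retained-intron and 10.5% nonsense-mediated decay. Reads that fit several transcripts of a gene were divided among them by the authors' estimate, and the part of that division in these shares was not tested.

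**Figure D3:**
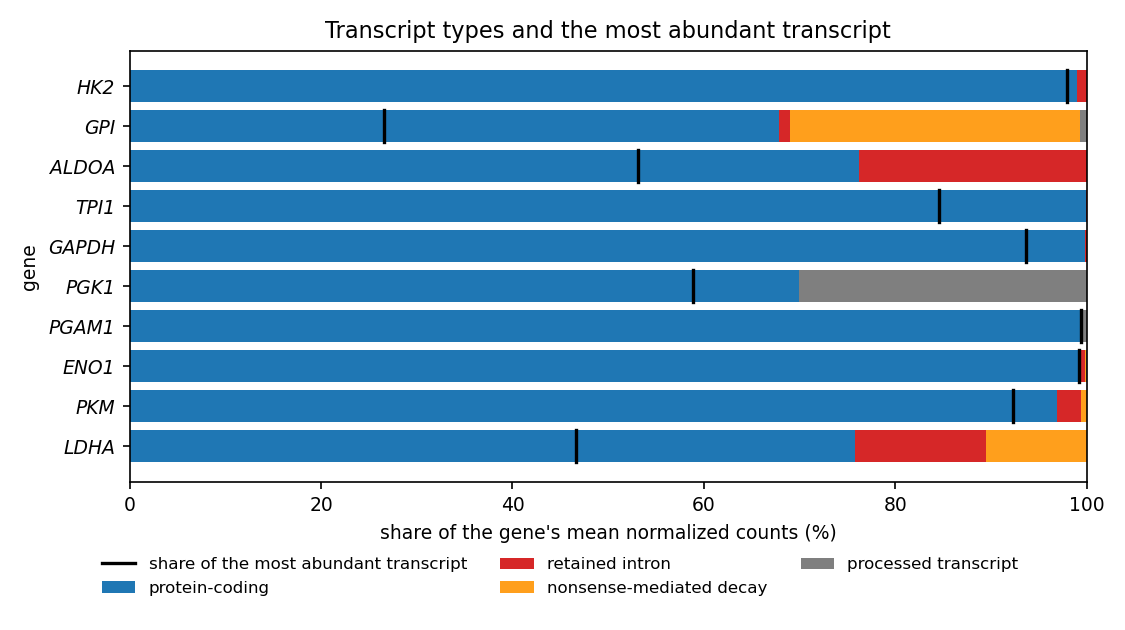
Share of each gene's mean normalized counts (%) by annotated transcript type (colors), with a black line at the share of the most abundant transcript. GPI, ALDOA, PGK1 and LDHA have 67.9% to 76.2% of their reads in protein-coding transcripts, and the other 6 genes have over 95%.

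Several steps of glycolysis can be run by more than one gene, and the isoenzyme genes differ by tissue. Of the isoenzyme genes reported here, 10 had listed transcripts, 32 in all, whereas HK3, PGK2, PKLR, LDHC, LDHAL6A and LDHAL6B had none. A gene without a listed transcript may have had reads below the authors' filter. PGK1 and PKM therefore held all listed reads of their step. GAPDH held 99.99% beside the sperm gene GAPDHS (6.68), PGAM1 99.8% beside PGAM2 (8.31) and PGAM4 (9.37), and ALDOA 99.6% beside ALDOC (101.7). ENO1 held 96.6% of the enolase reads, with the neuronal ENO2 at 2186, the muscle ENO3 at 412 and ENO4 at 16.9.

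Hexokinase and lactate dehydrogenase were shared between genes. HK1, the hexokinase of most tissues, had 8029.7 mean normalized counts, 74.2% of the hexokinase reads, against 2589 (23.9%) for HK2 and 199 (1.84%) for HKDC1. LDHA held 69.9% of the lactate dehydrogenase reads and LDHB 30.1%, at 4474 over 4 transcripts. These sums take all transcript types, and protein-coding transcripts held 37.7% of the LDHB reads against 75.8% of the LDHA reads. The protein-coding LDHB-201 alone held 37.3% of the LDHB reads, and LDHB-211, which is not protein-coding, had an equal count of 1667. How reads were divided between them was not tested. The shares of each step are shares of reads and depend on the lengths of the mRNAs, so they do not give the ratio of molecules.

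**Figure D4:**
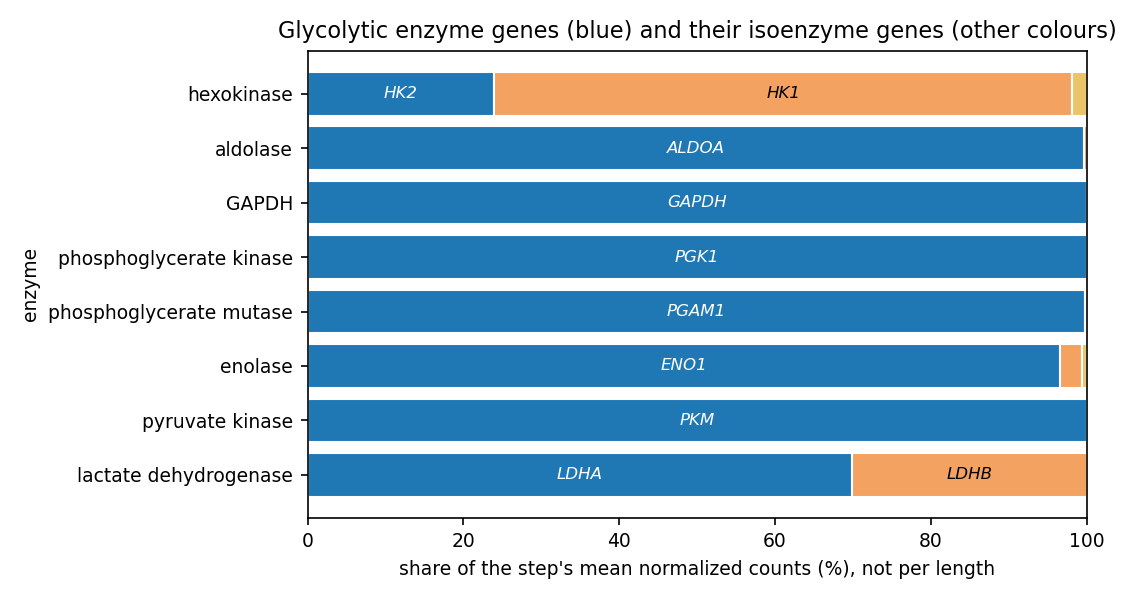
Share of the mean normalized counts of each enzymatic step (%) held by the glycolytic enzyme genes (blue) and by isoenzyme genes with listed transcripts (other colors), not corrected for mRNA length. HK2 holds 23.9% of the hexokinase reads and LDHA 69.9% of the lactate dehydrogenase reads, and in the other steps shown the blue share is at least 96.6%.

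Processed pseudogenes, copies of an mRNA inserted elsewhere in the genome, are numerous for these genes and can draw reads from the parent. The table listed 29 genes named as pseudogenes of a member, with 30 transcripts between 4.65 and 145. GAPDH had 15 of them, PGAM1 and LDHA 3 each, TPI1, ENO1 and PKM 2 each, and HK2 and PGK1 1 each, while GPI and ALDOA had none. Their sum was 886, or 0.227% of the members' counts. Against the parent, it was highest for PGAM1 (1.67%, mostly PGAM1P7 at 106), LDHA (1.36%) and TPI1 (1.01%, mostly TPI1P1 at 145), and lay at or under 0.516% for the other 5. How reads that fit both a parent and a pseudogene were divided was not tested.

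Of the wider pathway, all 17 genes looked up were listed, with 121 transcripts in all. Phosphofructokinase, which commits sugar to glycolysis, was listed through PFKP at 14928, PFKL at 5433 and PFKM at 1923. Of the PFKFB genes, which set the level of its activator fructose-2,6-bisphosphate, PFKFB3 was at 2147, PFKFB4 at 1071, PFKFB2 at 544 and PFKFB1 at 7.18. Among transporters, the glucose carrier SLC2A1 was at 17947 and SLC2A3 at 562. For export of lactate, SLC16A3 was at 15707 and SLC16A1 at 16.6. The median share of the most abundant transcript was 55.0% over these 17 genes, against 88.4% over the 10 members. The median protein-coding share was 77.4% against 97.9%. The lists were not matched for the number of transcripts or the gene total. Single genes overlapped, as the share of the most abundant transcript ran from 24.7% to 100% over the 17 genes and from 26.5% to 99.4% over the members. The most abundant transcript was protein-coding in 15 of the 17. Of protein-coding genes with at least 5 listed transcripts it was so in 86.6%, but some of the 17 have fewer, so the sets differ.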

How the data were processed

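RIP-seq was done on MDA-MB-231 cells that expressed 3x flag-YTHDC1 from a lentivirus, with 2 IP and 2 input libraries grouped by their titles. By the paper's methods and the submitters' processing notes, the authors mapped reads with STAR (version 2.7.2b) to a GENCODE v33 transcriptome, estimated reads per transcript with RSEM (version 1.2.31), dropped transcripts unless 50% or more of the libraries had 5 or more reads, removed batch effects by RUVSeq and compared groups with DESeq2. The deposited signal value used here is the authors' mean normalized count of a transcript over all 4 libraries. The deposited table has 4 more columns (log2 fold change, its standard error, p-value and adjusted p-value), which are the authors' own comparison and were not used. A count test of IP against input had been planned and was not run, since no value per library is given.

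Counts were summed per gene identifier, and shares were taken of these sums with python 3.11.15, numpy 2.4.6 and pandas 2.3.3. The summing was checked on simulated data. Named transcripts were the 2 most abundant of each member and any other with at least 10% of its gene. A few others are named as the ends of a range, the highest of a type, or the rest of a short list, chosen after their values were seen. The members and lists were chosen with earlier results of these data known. The identifiers of all 10 genes matched a list of current Ensembl genes, and positions are RefSeq gene spans on GRCh38.p14. The alternatives tried were a minimum of 10 or 100 per transcript, sums over protein-coding transcripts only, and pseudogenes added. Some genes of the isoenzyme list are not reported here.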

Additional observations from a re-analysis of the deposited data

How the results depend on the processing

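With a minimum mean normalized count of 100 per transcript, 47 of the 104 member transcripts were left, the members held 1.21% of all counts, and protein-coding transcripts held 95.5% of the members' counts. A minimum of 10 left 97 transcripts, and adding pseudogenes left the members' share at 1.17%. The most abundant transcript was protein-coding in all 10 genes under both minimums, and held over 50% in 8 of them. The minimums could not change which transcript led, since the lowest leading count was 2535, for HK2-201. When protein-coding transcripts alone were summed, the most abundant transcript held over 50% in 9 genes, LDHA being the added gene at 61.6%. With protein-coding transcripts alone, the share of the most abundant transcript rose by 1 percentage point or more in 6 genes, most in PGK1, from 58.8% to 84.1%. No share could fall, because these settings kept the most abundant transcript of each gene and removed only others.

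No paired analysis was possible because the table has no value per library. For the same reason, leaving out each replicate and other size factors were not run, and neither the spread between libraries nor the depth is known. Rare transcripts near the lowest listed value rest on few reads.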

Other observations

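Outside the 10 genes, transcripts without a coding annotation led in 2 of the 17 wider pathway genes. Of all protein-coding genes with at least 5 listed transcripts, a set that leaves out some of the 17, 86.6% were led by a coding one. MPC1, a subunit of the mitochondrial pyruvate carrier, had 65.2% of its total of 114 in the retained-intron transcript MPC1-203. PDHB, a subunit of pyruvate dehydrogenase, had 47.0% of its total of 1367 in the retained-intron transcript PDHB-203.

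LDHB-201 and LDHB-211 had the same mean normalized count of 1667, with a difference of 0. No pair of transcripts within any of the 10 glycolytic enzyme genes had equal values.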
